A study of Mus musculus with 7 samples.

Results

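The genes described here encode structural proteins of the extracellular matrix: collagen chains, laminin chains, and the matrix proteins Fn1, Eln, Sparc, Tgfbi and Spon2. They were chosen by gene symbol, as collagens (Col, a number, a, a number), laminins (Lama, Lamb or Lamc and a number) and named matrix proteins, with the brightest probe set kept for each gene. This gave 59 of the 16819 named genes measured: 44 collagen chains, 10 laminin chains and 5 other proteins. Fbn1 also falls under the choice and was not analysed here. Values are log2 signals, so a difference of 1 is a doubling.

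Whole liver RNA of male Dicer1 fl/fl mice, on a mixed background of 129S4 and C57BL/6, was hybridised to 7 arrays. The mice were to lose Dicer1, the ribonuclease that releases mature microRNAs, in hepatocytes through AAV8-Ttr-Cre, a virus whose Cre recombinase is driven by a transthyretin promoter. It was given at 8 to 10 weeks of age, and livers were taken after a fast of 4 hours. The groups were control (0 weeks, Dicer1 fl/fl without the virus, 3 arrays), 2 weeks after AAV8-Ttr-Cre (2 arrays) and 4 weeks after it (2 arrays). No group given virus without Cre and no control at 2 or 4 weeks was analysed here, so Dicer1 loss, virus, Cre and elapsed time cannot be told apart. Both times were compared with the same 3 controls. By the labels, arrays within a group are biological replicates, but no animal is named, so p-values measure the spread between these arrays.

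Dicer1 signal was 8.58 to 8.73 on the control arrays and 7.79 to 8.05 on the 4 arrays after Cre. On the first principal component over all genes (62% of the variance), the controls lay between -23.8 and -22.4 and Cre 2 wk replicate 1 at 6.56. The other arrays after Cre lay between 18.4 and 24.3. The array medians ran from 7.23 to 7.26. Markers of hepatocytes (12 measured) had a mean log2 signal of 13.73 to 13.82 on all arrays. Over both times after Cre 1 of them was called higher (Fgb, a fibrinogen chain, 0.22, adjusted p = 0.0354) and 1 lower (Tat, tyrosine aminotransferase, -0.62, adjusted p = 0.0334), and 0 were called at either time alone. At an unadjusted p under 0.05, 1 was higher and 1 lower at 2 weeks, and 1 higher and 2 lower at 4 weeks.

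Collagens are trimers of chains that share long repeats of glycine and other residues. Fibrillar collagens give tissue its tensile strength, collagen IV and laminins form the 2 sheet-like networks of basement membranes, and smaller collagens and glycoproteins decorate or link them. In liver, stellate cells are known as the main source of fibrillar collagen, while hepatocytes secrete plasma fibronectin and collagen XVIII. The miR-29 family is known to repress many collagen and other matrix transcripts, and microRNAs of this family depend on Dicer1 for their maturation.

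The family has 3 mature members, whose sequences are shown because they carry the pairing region through which this microRNA family meets matrix transcripts (RefSeq, GRCm38.p6; 5′ to 3′, seed bases 2 to 8 in capitals).
mmu-miR-29a-3p: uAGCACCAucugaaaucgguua
mmu-miR-29b-3p: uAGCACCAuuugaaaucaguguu
mmu-miR-29c-3p: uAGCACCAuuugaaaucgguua
All 3 share the seed, and 0 other mature mouse microRNAs in the table carry it. With positions counted from the 5′ end of miR-29a, miR-29c differs from it by C10U alone, and miR-29b by 4 substitutions over the length they share. Target sites in the transcripts of the 59 genes were not searched.

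At 2 weeks after Cre, 5 of the 59 matrix genes were higher than in control livers and 0 were lower (limma, adjusted p under 0.05, n = 3 control and 2 arrays at each time), beside 5.93% of all genes called in either direction. These were Spon2, Col18a1, Lamb1, Col15a1 and Tgfbi. Of all genes, 3.46% were called higher and 2.47% lower at this time, against 8.47% of the matrix genes called higher. At 4 weeks, 3 of 59 (5.08%) were higher, namely Spon2, Col18a1 and Tgfbi, and 0 were lower, beside 5.15% and 4.62% of all genes (9.77% in either direction). The share at 4 weeks was close to that of all genes. Over both times together, 5 were higher (Spon2, Col18a1, Tgfbi, Lamb1 and Col4a1) and 0 lower, beside 6.79% and 6.12% of all genes (12.9% in either direction). Between 4 and 2 weeks 0 of the 59 were called in either direction (3 at an unadjusted p under 0.05), and 0.00595% of all genes were. Leaving out any 1 of the 7 arrays gave 0 to 3 matrix genes called higher at 2 weeks, 0 to 3 at 4 weeks and 1 to 4 over both times. When each time was fitted with the controls alone, Spon2 was the 1 gene still called at 2 weeks. At an unadjusted p under 0.05, 11 differed from control at 2 weeks, 12 at 4 weeks and 11 over both times, of which 0, 1 and 0 were lower. Of all genes, 11.8% were higher and 11.1% lower at this level at 2 weeks, 12.9% and 11.9% at 4 weeks, and 14.2% and 13.2% over both times. In whole liver, a change in the number of cells of a type and a change in RNA per cell cannot be told apart.

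Most matrix genes differed little from control in measured signal. Their median log2 difference was 0.02 at 2 weeks and 0.03 at 4 weeks, where the median over all genes was -0.0024 and 0.0080. These medians include 37 genes with the same deposited value on 3 or more arrays. Without genes of that kind the median of the matrix genes was 0.22 at 2 weeks and 0.13 at 4 weeks. The median of all genes after the same omission was not computed, so 0.22 and 0.13 have no background beside them. Leaving aside the 6 genes named above, the other 53 ranged from -0.09 to 0.54 at 2 weeks and from -0.18 to 0.32 at 4 weeks. All 4 arrays after Cre lay above all 3 controls for 10 of the 59 genes (16.9%) and below them for 0. Over all genes these shares were 12.9% and 12.2%. The 10 were the called Spon2, Col18a1, Tgfbi, Lamb1 and Col4a1, and 5 that were not called: Col3a1, Col14a1, Lamc1, Eln and Fn1.

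**Figure D1:**
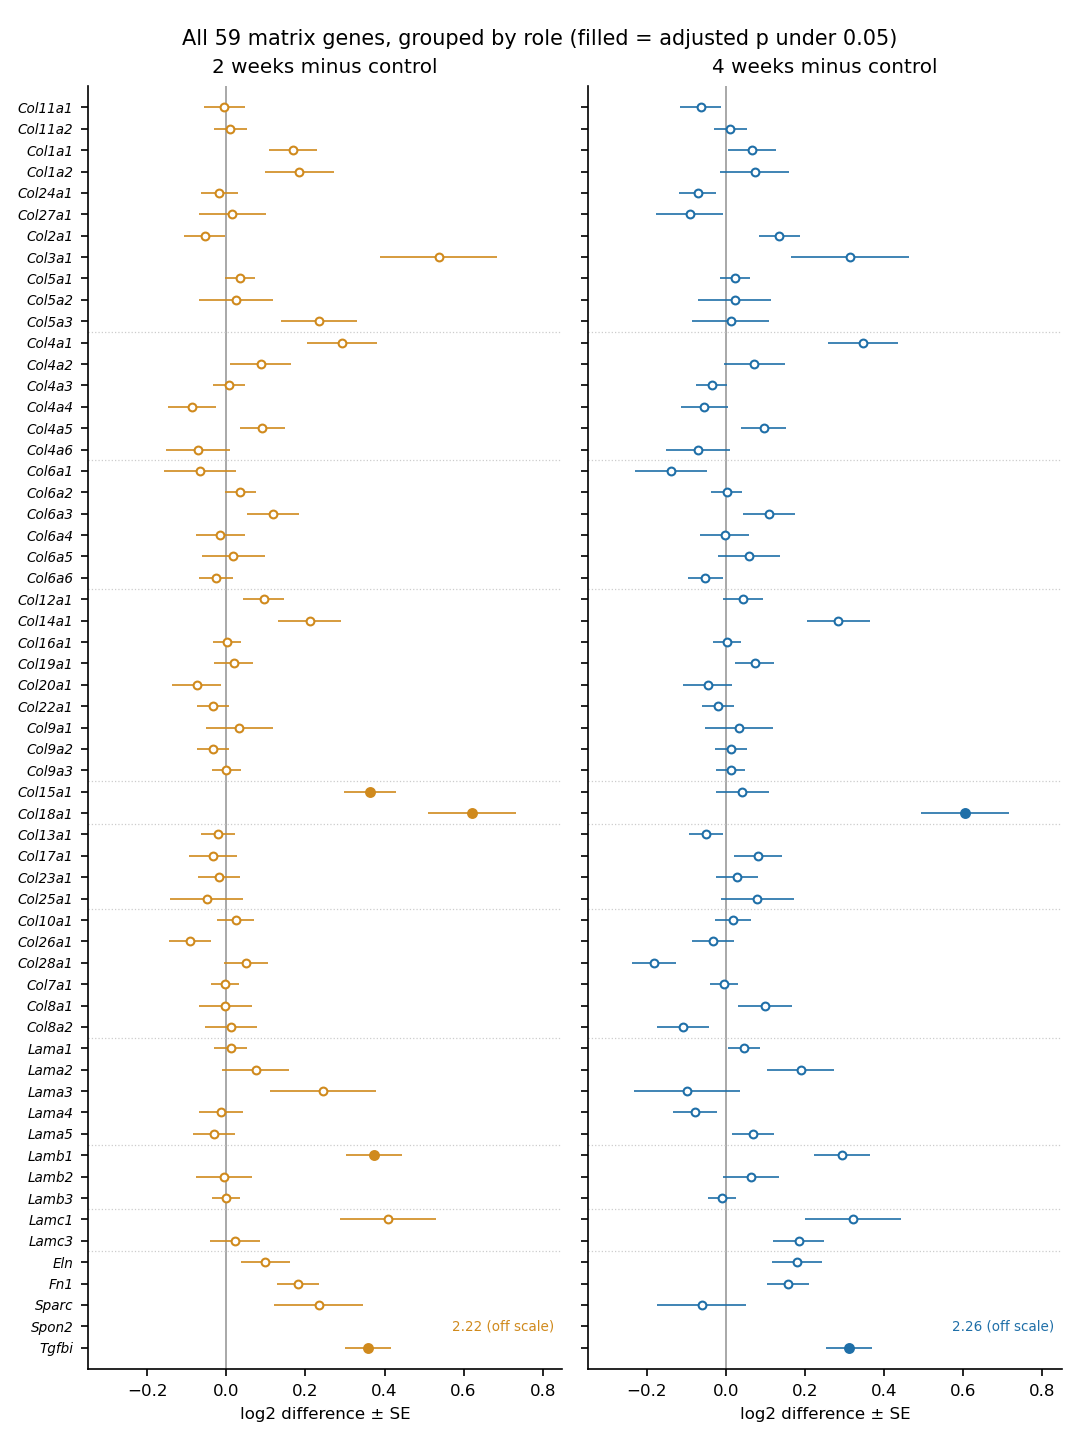
Log2 difference from control (x axis, with the SE of the fit) of each of the 59 matrix genes (y axis, grouped by role between dotted lines) at 2 weeks (left) and 4 weeks (right). Filled circles passed an adjusted p of 0.05: 5 genes at 2 weeks and 3 at 4 weeks, with Spon2 (2.22 and 2.26) beyond the axis, and most other genes lie near 0.

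Among the 59 genes, 37 (62.7%) had exactly the same deposited value on 3 or more of the 7 arrays, against 38.2% of all genes. For Col7a1, Col9a3, Col16a1 and Lamb3 the value was the same on 6 arrays. The tests of such genes rest on repeated values. The 6 called genes had no repeated value.

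Spon2, which encodes spondin 2, a secreted matrix protein known for its part in innate immune recognition, had the largest difference of the group. Its control arrays read 6.38, 6.81 and 6.58, its arrays at 2 weeks 8.48 and 9.14, and those at 4 weeks 8.84 and 8.85. The lowest array after Cre was well above the highest control, and the arrays at 4 weeks were nearly equal. Spon2 rose 4.66-fold at 2 weeks (limma, log2 difference 2.22 with SE 0.22, adjusted p = 0.0121) and 4.78-fold at 4 weeks (log2 2.26, SE 0.22, adjusted p = 0.00867). The times differed by 0.03 (SE 0.24, adjusted p = 1). The adjusted p at 2 weeks was 0.0655 without control replicate 3, and at 4 weeks it was 0.0692 and 0.067 without Cre 4 wk replicate 1 or 2. Over both times the call held without any single array, with log2 differences of 2.07 to 2.40.

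Tgfbi encodes a secreted protein, induced by TGF-beta, that binds collagens and integrins. Its signal was 8.75, 8.66 and 8.65 in the controls, 9.01 and 9.08 in the 2 week livers, and 8.94 with 9.06 in the 4 week livers, with no overlap. It rose 1.28-fold at 2 weeks (limma, log2 difference 0.36 with SE 0.06, adjusted p = 0.0322) and 1.24-fold at 4 weeks (log2 0.31, SE 0.06, adjusted p = 0.0332). The call at 2 weeks held only without Cre 2 wk replicate 1, and that at 4 weeks only without either array of 2 weeks. Without any other single array the adjusted p was 0.0573 to 0.112 at 2 weeks and 0.0663 to 0.134 at 4 weeks, with log2 differences between 0.25 and 0.39. Over both times (log2 0.33, SE 0.05, adjusted p = 0.0141) the call was lost without control replicate 2 (0.0671) or 3 (0.0664).

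The other 3 proteins of this kind did not pass the test. Fibronectin (Fn1), the adhesive glycoprotein that hepatocytes secrete into plasma, read 12.98 to 13.09 in controls and 13.16 to 13.25 after Cre. Its difference over both times was 0.17 (SE 0.04, adjusted p = 0.0632). When the 4 arrays after Cre were fitted as 1 group, its adjusted p was 0.042. On leaving out any 1 array in the fit of 3 groups, Fn1 was not called, with differences of 0.14 to 0.19. Elastin (Eln), the core of elastic fibres, read at most 7.11 in controls and 7.15 to 7.32 after Cre (0.14, SE 0.05, adjusted p = 0.155). Sparc, a collagen-binding glycoprotein, read 10.22 and 10.36 at 2 weeks and 9.85 and 10.14 at 4 weeks, around controls of 10.18, 10.01 and 9.98. Its differences were 0.23 (adjusted p = 0.292) and -0.06 (adjusted p = 0.799).

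Of the fibrillar collagens, rope-forming chains of which only some make up scar tissue, 0 of 11 passed the test at either time or over both. At an unadjusted p under 0.05, 2 were higher at 2 weeks (Col1a1 and Col3a1) and 1 at 4 weeks, and 0 and 0 lower. The 1 at 4 weeks was Col2a1 (log2 0.13, adjusted p = 0.184), which had the same value on 3 arrays. Col1a1 and Col1a2 encode the chains of collagen I. Col1a1 read 8.20, 8.10 and 8.05 in controls, 8.24 and 8.32 in the 2 week livers, and 8.16 with 8.20 in the 4 week livers. Both arrays at 2 weeks lay above the controls, while those at 4 weeks lay among them. Its log2 differences were 0.17 (SE 0.06, adjusted p = 0.176) and 0.07 (SE 0.06, adjusted p = 0.571).

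For Col1a2 the signal was 8.19, 8.22 and 8.08 in controls, 8.22 and 8.47 in the 2 week livers, and 8.22 with 8.25 in the 4 week livers. The groups overlapped, and the differences were 0.18 (SE 0.09, adjusted p = 0.282) and 0.07 (SE 0.09, adjusted p = 0.674). Col3a1, which forms thin fibrils together with collagen I, had the largest difference of the fibrillar chains. It read 7.74, 8.19 and 7.76 in controls, 8.34 and 8.52 in the 2 week livers, and 8.22 with 8.19 in the 4 week livers. Control replicate 2 stood apart from the other controls and was nearly level with the arrays at 4 weeks. The difference was 0.54 at 2 weeks (SE 0.15, adjusted p = 0.1, limma) and 0.31 at 4 weeks (SE 0.15, adjusted p = 0.272). Over both times it was 0.43 (adjusted p = 0.0861), and without control replicate 2 it was 0.57 (adjusted p = 0.0332). That was the only array whose omission gave a call, and over all such omissions the difference ran from 0.35 to 0.57.

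The chains of collagen V, which sets the width of collagen fibrils, gave smaller values. Col5a3 read 7.67 to 7.72 in controls and 7.93 and 7.92 at 2 weeks, but 7.54 and 7.87 at 4 weeks. Its difference was 0.23 at 2 weeks (SE 0.10, adjusted p = 0.228) and 0.01 at 4 weeks. Over both times it was 0.12 (adjusted p = 0.405), and on leaving out single arrays it ran from 0.04 to 0.21. Col5a1 and Col5a2 differed from control by at most 0.03 at either time.

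Collagen IV is the collagen of basement membranes, and in most tissues it is built of the chains of Col4a1 and Col4a2. These genes lie head to head on opposite strands, and in the RefSeq windows their start sites are 21 bases apart. Each start lies inside the other transcript, so the 21 bases are an overlap and not a gap. The windows around the starts share 78 bases. Col4a1 read 7.78, 8.08 and 7.93 in controls, 8.19 and 8.25 in the 2 week livers, and 8.27 with 8.28 in the 4 week livers. All arrays after Cre were above the controls, and those of each time were close together. Its difference was 0.29 at 2 weeks (SE 0.09, adjusted p = 0.12) and 0.35 at 4 weeks (SE 0.09, adjusted p = 0.0691). Over both times Col4a1 rose 1.25-fold (limma, log2 difference 0.32 with SE 0.07, adjusted p = 0.0455). Only without control replicate 2 did this call hold (log2 0.39, adjusted p = 0.0472), and without each of the other arrays the adjusted p was 0.0801 to 0.144.

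Col4a2, its partner, read 7.78, 7.91 and 7.82 in controls, 7.96 and 7.88 in the 2 week livers, and 7.81 with 8.00 in the 4 week livers. The groups overlapped, and the difference over both times was 0.08 (SE 0.06, adjusted p = 0.497). Whether the chains differed from each other in response was not tested. The other 4 chains of collagen IV, found in more specialised basement membranes, lay between -0.09 and 0.10 at both times, with 0 called.

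The windows of 250 bases before to 50 after the start were examined for the called genes that have 1 window in the RefSeq table, to show where the head-to-head pair and the other genes begin. They are printed 5′ to 3′ on the gene's strand (GRCm38.p6), with matches to GGGCGG on either strand, the GC box bound by Sp factors, in capitals.
Col4a1 (chr8:11312777-11313076, minus strand): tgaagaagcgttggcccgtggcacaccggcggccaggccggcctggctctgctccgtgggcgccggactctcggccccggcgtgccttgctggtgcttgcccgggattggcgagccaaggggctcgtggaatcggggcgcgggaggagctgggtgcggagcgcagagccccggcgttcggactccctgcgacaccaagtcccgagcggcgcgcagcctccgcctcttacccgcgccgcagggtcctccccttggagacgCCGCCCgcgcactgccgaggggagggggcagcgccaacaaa
Lamb1 (chr12:31265043-31265342, plus strand): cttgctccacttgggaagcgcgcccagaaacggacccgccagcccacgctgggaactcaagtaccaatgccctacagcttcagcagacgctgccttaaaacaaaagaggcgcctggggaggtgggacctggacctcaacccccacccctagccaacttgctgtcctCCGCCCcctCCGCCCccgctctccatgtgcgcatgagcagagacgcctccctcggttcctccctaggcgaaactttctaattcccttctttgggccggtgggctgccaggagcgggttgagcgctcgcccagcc
Tgfbi (chr13:56609336-56609635, plus strand): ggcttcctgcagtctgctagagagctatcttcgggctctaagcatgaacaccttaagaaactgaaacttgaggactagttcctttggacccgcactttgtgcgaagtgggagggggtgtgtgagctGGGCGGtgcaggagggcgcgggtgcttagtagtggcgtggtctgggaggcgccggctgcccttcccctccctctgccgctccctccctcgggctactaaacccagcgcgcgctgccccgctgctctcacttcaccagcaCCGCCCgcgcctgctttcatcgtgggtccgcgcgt
The motif was in 35.7% of all 32851 windows and in 27 of the 46 windows of matrix genes (58.7%), which cover 42 of the 59 genes. The Col15a1 window (chr4:47207762-47208061) held 0 matches. Col18a1 has 2 windows in the table, and 1 of them held matches. TGANTCA, the AP-1 motif, was in 7.81% of all windows and in 1 of the 46, that of Col6a1. CCAAT was in 37.4% of all windows and 30.4% of the 46, and TATAAA in 13.6% and 10.9%. Matches on either strand counted, and no motif searched contains another. These are matches of letters in a window, not measured binding.

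Both multiplexins, collagens of the basement membrane zone whose ends are cut to fragments that restrain blood vessel growth, were called at 2 weeks. Col18a1, the source of endostatin, read 11.08, 11.03 and 10.99 in controls, 11.48 and 11.83 in the 2 week livers, and 11.71 with 11.57 in the 4 week livers. The groups did not overlap, and Cre 2 wk replicate 1 was the lowest array after Cre. Col18a1 rose 1.54-fold at 2 weeks (limma, log2 difference 0.62 with SE 0.11, adjusted p = 0.0391) and 1.52-fold at 4 weeks (log2 0.60, SE 0.11, adjusted p = 0.0311). The difference over both times was 0.61 (SE 0.09, adjusted p = 0.0156). That call was lost without any 1 control (adjusted p 0.0583 to 0.0768) and without either array of 4 weeks. Without Cre 2 wk replicate 1 the value at 2 weeks was 0.80 (adjusted p = 0.014), and without replicate 2 it was 0.44 (adjusted p = 0.0721). Without any 1 control or array of 4 weeks, the call was lost at both times, with adjusted p-values of 0.0869 to 0.152 at 4 weeks and of 0.0897 to 0.137 at 2 weeks.

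Col15a1, the source of restin, was called at 2 weeks and was near its control level at 4 weeks. It read 7.46, 7.29 and 7.44 in controls, 7.80 and 7.73 in the 2 week livers, and 7.48 with 7.40 in the 4 week livers. Both arrays at 2 weeks lay above the controls, and those at 4 weeks overlapped them. It rose 1.29-fold at 2 weeks (limma, log2 difference 0.36 with SE 0.07, adjusted p = 0.042) and was at 0.04 at 4 weeks (SE 0.07, adjusted p = 0.769). The difference between the times, -0.32 (SE 0.07), did not pass (adjusted p = 0.436). The call at 2 weeks was lost on leaving out any 1 of the 7 arrays (adjusted p 0.0845 to 0.114, log2 0.31 to 0.40).

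**Figure D2:**
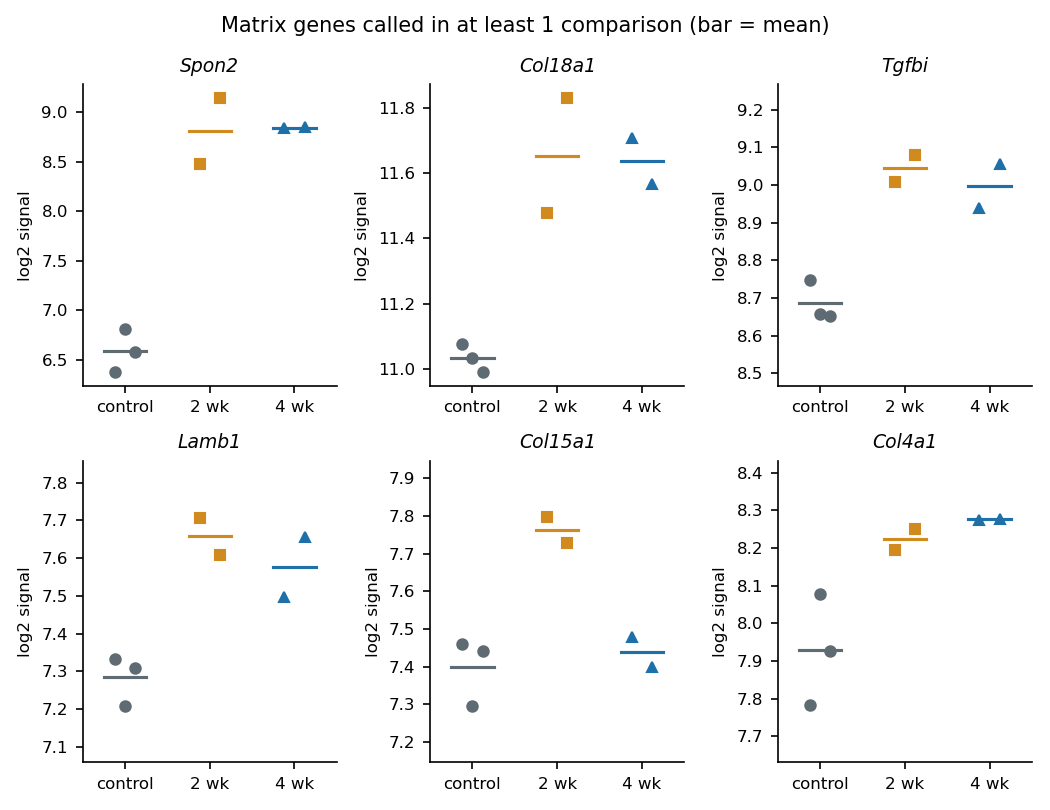
Log2 signal (y axis, a separate range for each gene) of the 6 called matrix genes in control (circles), 2 week (squares) and 4 week (triangles) livers, 1 point per array, with bars at the group means. For Spon2, Col18a1, Tgfbi, Lamb1 and Col4a1 every array after Cre lies above every control, while Col15a1 at 4 weeks (7.48 and 7.40) lies within the control range of 7.29 to 7.46 or just above it.

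Laminins are cross-shaped trimers of an alpha, a beta and a gamma chain, and Lamb1 and Lamc1 encode the beta and gamma chains of the most widespread forms. Lamb1 read 7.33, 7.21 and 7.31 in controls, 7.71 and 7.61 in the 2 week livers, and 7.50 with 7.66 in the 4 week livers, with no overlap. It rose 1.30-fold at 2 weeks (limma, log2 difference 0.37 with SE 0.07, adjusted p = 0.0453) and was at 0.29 at 4 weeks (SE 0.07, adjusted p = 0.0607). Over both times it rose 1.26-fold (log2 0.33, adjusted p = 0.0233). The call at 2 weeks was lost on leaving out any 1 array (adjusted p 0.0692 to 0.132), and that over both times on leaving out any control or Cre 4 wk replicate 2 (0.0652 to 0.0871).

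Lamc1 read 7.88, 7.94 and 7.62 in controls, 8.20 and 8.25 in the 2 week livers, and 8.01 with 8.26 in the 4 week livers. The arrays after Cre were all above the controls, of which replicate 3 was the lowest. Its differences were 0.41 (SE 0.12, adjusted p = 0.116) and 0.32 (SE 0.12, adjusted p = 0.176), close in size to those of Lamb1 but with a wider spread. Of the 5 alpha chains, which bind the cell receptors, 0 were called, and their differences ran from -0.03 to 0.24 at 2 weeks and from -0.10 to 0.19 at 4 weeks. Lama5, the alpha chain of many adult basement membranes, was at -0.03 and 0.07, and Lamb2 at -0.01 and 0.06. Counted by family, 1 of 10 laminin chains was higher at 2 weeks and 0 at 4 weeks.

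Of the collagens that sit on or between fibrils, 0 of 9 FACIT collagens and 0 of 6 chains of collagen VI, which forms beaded filaments around cells, were called; at an unadjusted p under 0.05 these were 1 and 0 at each time. Col14a1, a FACIT collagen that binds to collagen I fibrils, read 9.83, 9.97 and 9.74 in controls, 9.99 and 10.12 in the 2 week livers, and 10.12 with 10.13 in the 4 week livers. Control replicate 2 and Cre 2 wk replicate 1 nearly met. Its differences were 0.21 (SE 0.08, adjusted p = 0.193) and 0.28 (SE 0.08, adjusted p = 0.0878). Col6a1, Col6a2 and Col6a3 lay between -0.14 and 0.12, and the 4 transmembrane collagens and 6 remaining collagens between -0.18 and 0.10, with 0 called.

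A list of 10 matrix genes known from the literature as miR-29 targets was taken apart, of which 9 were measured (all but Fbn1). In order of role these were Col1a1, Col1a2, Col3a1, Col4a1, Col4a2, Col15a1, Lamc1, Eln and Sparc. At 2 weeks all 9 were above the control mean, with a median difference of 0.23, and 1 was called (Col15a1, 11.1%). At 4 weeks 8 of 9 were above it, with a median of 0.07, and 0 were called. Over both times 1 was called (Col4a1), and the median was 0.14. For the other 50 matrix genes the median was 0.01 at 2 weeks, 0.02 at 4 weeks and 0.02 over both, with 4, 3 and 4 called higher. These medians do not compare like with like. Of the 9 listed genes, Col1a2 alone had the same value on 3 or more arrays, against 37 of all 59 matrix genes. Without genes of that kind, the median of all matrix genes, listed ones included, was 0.22 at 2 weeks, 0.13 at 4 weeks and 0.13 over both. Both arrays of 2 weeks lay above all controls for 7 of the 9 and 7 of the other 50 (17.3% of all genes), and below them for 0 and 1 (17.5% of all genes). Both 4 week arrays lay above for 4 of 9 and 9 of 50 (21.6% of all genes), and below for 0 and 3 (18.2% of all genes). The list was known to hold many positive values when it was chosen, and no test of it as a list was made.

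**Figure D3:**
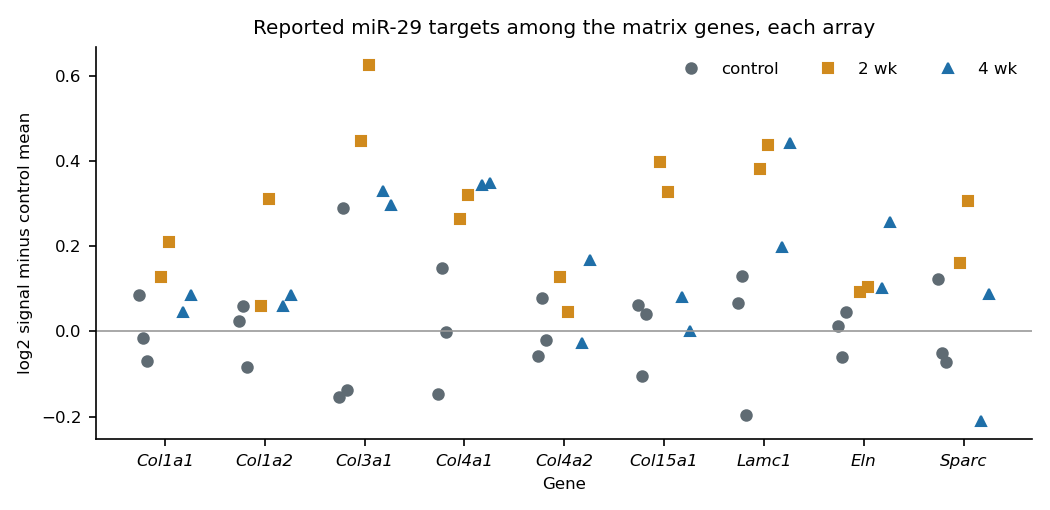
Log2 signal minus the control mean (y axis) for each array and each of the 9 measured genes on the miR-29 list (x axis), with controls as circles, 2 weeks as squares and 4 weeks as triangles. The squares of all genes lie above 0, while triangles of Col4a2, Sparc and other genes reach down among the controls, and the controls of Col3a1, Col4a1 and Lamc1 are widely spread.

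Genes that act with these matrix proteins were taken from lists by function. Of 27 receptors of collagen, laminin and fibronectin, 3 (11.1%) were higher at 2 weeks, 6 (22.2%) at 4 weeks and 6 (22.2%) over both times. Called lower were 0. Of all genes, 3.46%, 5.15% and 6.79% were called higher, and 2.47%, 4.62% and 6.12% lower. Itga5, the alpha chain of the main fibronectin receptor, read 7.62, 7.72 and 7.59 in controls, 9.13 and 8.94 in the 2 week livers, and 9.24 with 8.93 in the 4 week livers. It rose by 1.39 (SE 0.11, adjusted p = 0.00732) and 1.44 (SE 0.11, adjusted p = 0.0064), with each array after Cre over 1 log2 unit above the highest control. Itga1, the alpha chain of a collagen receptor, read 9.06 to 9.19 in controls, 9.67 and 9.88 in the 2 week livers, and 9.99 with 9.90 in the 4 week livers. It rose by 0.64 (adjusted p = 0.0188) and 0.81 (adjusted p = 0.009). Dag1, the dystroglycan that binds laminin, rose by 0.28 over both times (adjusted p = 0.0161), and Itgb5, a vitronectin receptor chain, by 0.35 (adjusted p = 0.0175). At an unadjusted p under 0.05, 9 receptors were higher and 1 lower at 2 weeks, and 8 higher and 0 lower at 4 weeks. Of all genes, 11.8% were higher and 11.1% lower at this level at 2 weeks, and 12.9% and 11.9% at 4 weeks. Itgb1, the beta chain shared by most of these receptors, was at 0.03 (adjusted p = 0.633).

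**Figure D4:**
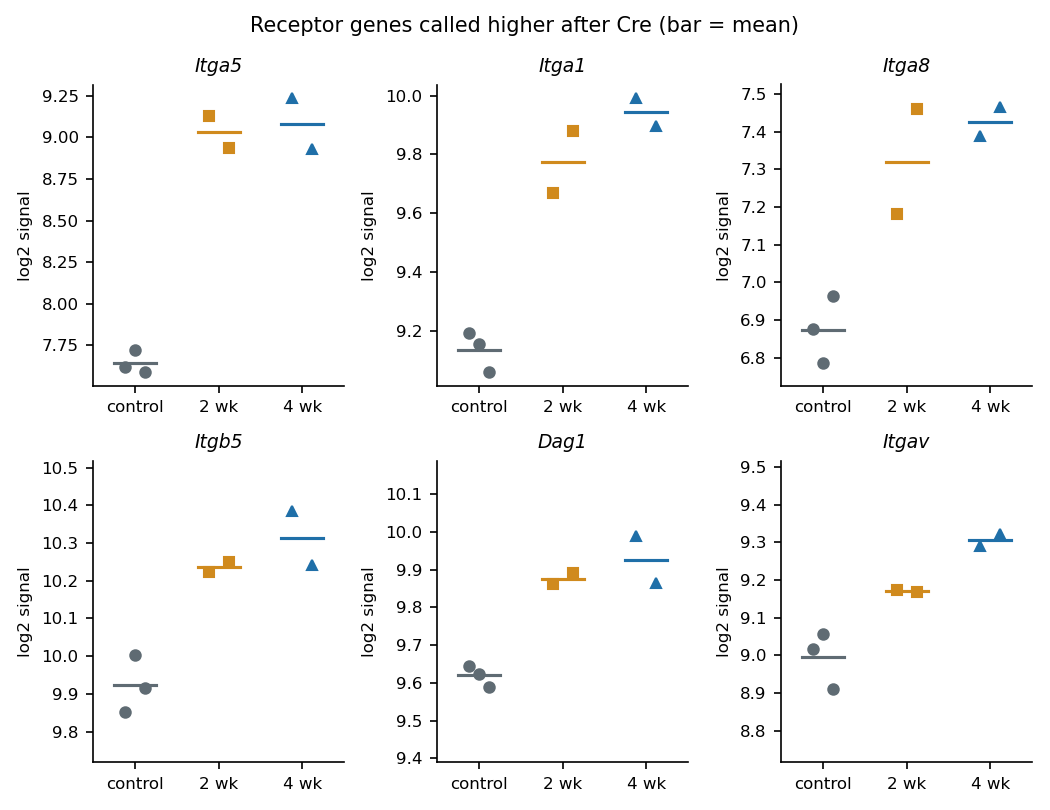
Log2 signal (y axis, a separate range for each gene) of the 6 receptor genes called higher over both times, in control (circles), 2 week (squares) and 4 week (triangles) livers, with bars at the means. In each panel all 4 arrays after Cre lie above all 3 controls, and Itga5 shows the widest gap.

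Of 18 other basement membrane components, 1 (5.56%) was higher at 2 weeks, 2 (11.1%) at 4 weeks and 3 (16.7%) over both times. Called lower were 0 (0, 1 and 1 lower at an unadjusted p under 0.05). Of all genes, 3.46%, 5.15% and 6.79% were called higher. Over both times Pxdn, the peroxidase that cross-links collagen IV, rose by 0.28 (SE 0.05, adjusted p = 0.0218), Agrn, a heparan sulfate proteoglycan, by 0.17 (adjusted p = 0.0384), and Smoc2, a matrix glycoprotein, by 0.29 (adjusted p = 0.0434). Of 22 enzymes and chaperones of collagen maturation, 0 were called at either time, and 2 (9.09%) were higher and 0 lower over both. At an unadjusted p under 0.05, 4 were higher and 0 lower at 2 weeks, 2 higher and 3 lower at 4 weeks, and 2 higher and 2 lower over both times. The 2 called were Mia3, which helps load procollagen into transport carriers (0.36, adjusted p = 0.033), and Bmp1, which trims procollagen ends (0.24, adjusted p = 0.0384). At the separate times their differences were 0.37 and 0.35, and 0.28 and 0.20. Of 36 proteoglycans and other matrix proteins, 0 were called at either time and 1, Prelp, over both (limma, 0.25, adjusted p = 0.0315).

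In the TGF-beta pathway, which is known to drive collagen genes in stellate cells, 2 of 22 genes (9.09%) were higher at each time and 0 lower. Of all genes, 3.46% were called higher at 2 weeks and 5.15% at 4 weeks. At an unadjusted p under 0.05, 6 and 8 of the 22 were higher and 0 lower. Of all genes, 11.8% and 12.9% were higher at this level, and 11.1% and 11.9% lower. Tgfbr1, the signalling receptor, rose by 0.72 over both times (SE 0.07, adjusted p = 0.00576), and Ski, a repressor of Smad-dependent transcription, by 0.41 (SE 0.05, adjusted p = 0.0112). The ligand gene Tgfb1 was at -0.07 (adjusted p = 0.599).

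Markers of stellate cells and myofibroblasts (19 measured) had a summed linear signal of 4109 to 4172 in controls, 4340 and 4867 in the 2 week livers, and 4527 with 4307 in the 4 week livers. At each time 0 of the 19 were called, and over both times 1 was (Pdgfrb, a receptor of stellate cells, 0.31, adjusted p = 0.0238). Of the 19, 3 were higher at 2 weeks, 2 at 4 weeks and 2 over both times at an unadjusted p under 0.05, with 0 lower. Of all genes, 11.8%, 12.9% and 14.2% were higher at this level. Acta2, the actin of activated stellate cells, read 7.55, 7.69 and 8.06 in controls, 8.11 and 8.81 in the 2 week livers, and 7.96 with 7.74 in the 4 week livers. It was thus highest on Cre 2 wk replicate 2. Of the 59 matrix genes, 10 (16.9%) were highest on that array, as were 16.6% of all genes. Its difference at 2 weeks was 0.69 (adjusted p = 0.169). Lrat, which marks quiescent stellate cells, was at 0.02 and 0.14, and Timp1 at -0.0016 and 0.02.

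The 15 endothelial markers summed to 8840 to 9152 in controls, 7593 and 9491 in the 2 week livers, and 9865 with 10940 in the 4 week livers, so Cre 2 wk replicate 1 was the lowest and both arrays of 4 weeks were the highest. Of these 0 were called at 2 weeks and 1 at 4 weeks (Clec4g, 0.60, adjusted p = 0.0438). Those with an unadjusted p under 0.05 were 0 higher and 2 lower at 2 weeks, 1 and 0 at 4 weeks, and 0 and 1 over both times. The 15 macrophage markers summed to 4050 to 4866 in controls and 4132 to 5262 after Cre, with 0 called. At an unadjusted p under 0.05, 0 were higher and 1 lower at 2 weeks, 1 higher and 1 lower at 4 weeks, and 2 higher and 1 lower over both times. The 9 bile duct markers summed to 918.5 to 1267 in controls and 1027 to 1712 after Cre, with Sox9 called over both times (0.37, adjusted p = 0.0298). Of the 9, 1 was higher and 0 lower at an unadjusted p under 0.05 at each time and over both. No detection call came with the values, so no marker can be called absent. The part of these cell types in the matrix values was not tested.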

How the data were processed

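Whole liver RNA was measured on 7 Affymetrix arrays, and per the labels' protocols the target was made with a whole-transcript sense kit. The values deposited by the authors are log2 signals, 1 per probe set and array, as read from their range. The submitters' processing notes list GCOS 1.4 and no role for it. The summarisation and normalization, not given in the sources used here, could change small differences. Groups came from the sample titles. Of 21093 probe sets, 17709 had 1 gene symbol, 187 several and 3197 none, and for each of 16819 genes the probe set with the highest mean was kept (463 genes had several, among them Col6a5 and Col6a6). Levels were not compared between genes.

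A linear model with 3 groups was fitted to all genes without a filter (limma 3.58.1, R 4.3.3, lmFit and eBayes, 4 residual and 1.69 prior degrees of freedom). Tests were two-sided, p-values were adjusted by Benjamini-Hochberg over all 16819 genes, and an adjusted p under 0.05 was called. SE is that of the fit. The steps were tested on simulated data. The genes named were the called ones, 23 measured matrix genes named by role, the matrix genes whose groups did not overlap, and in other lists at most 4 called with the smallest p over both times. Col2a1, Itgb1, Tgfb1, Acta2, Lrat, Timp1 and the 4 genes equal on 6 arrays fall outside this rule and were added after their values were seen. The members and lists were chosen with earlier results of these data known. Marker sums are of linear signals. The number of arrays limits the precision. Replicate numbers were not used to pair the arrays in the main fit, and whether they mark pairs is not known.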

Additional observations from a re-analysis of the deposited data

How the results depend on the processing

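Over the 13 calls described for the 6 called genes, quantile normalization, centring each array on its median, the mean of all probe sets and a trended robust prior each kept all 13, and 0 of these calls changed sign under any alternative. Quantile normalization moved the median of the matrix genes over both times from 0.0276 to 0.0182. Leaving out the third of genes with the lowest mean kept 51 matrix genes, of which 5 were higher at 2 weeks and 5 at 4 weeks. Of the 11212 genes kept in all, 868 were higher and 672 lower at 2 weeks, and 1095 higher and 1032 lower at 4 weeks. Fits of only the groups compared gave 1 higher at 2 weeks, with 171 of all genes higher and 105 lower there. Without single arrays, the counts of all genes at 2 weeks ran from 24 higher and 17 lower (without control replicate 3) to 1091 and 1077 (without Cre 2 wk replicate 1), at 4 weeks from 37 and 26 (without Cre 4 wk replicate 1) to 1001 and 947, and over both times from 333 and 240 to 1426 and 1362.

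Leaving out each array gave 0 to 3 genes higher at 2 weeks, 0 to 3 at 4 weeks and 1 to 4 over both times. The median difference ran from 0.0149 to 0.0270, from 0.0120 to 0.0428 and from 0.0181 to 0.0328, and the genes without overlap numbered 10 to 17. With fewer arrays any gene can more easily lack overlap, and the share over all genes was not counted for these fits. Such fits have fewer residual degrees of freedom, and where 1 array of a time is left it is assumed to vary like the other groups.

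With the replicate number as a block, 0 matrix genes were called higher at 2 weeks, at 4 weeks or over both times, beside 0, 1 and 2 of all genes called higher and 0, 1 and 3 called lower. Same-numbered arrays correlated in their deviations from the group means between -0.0651 and 0.111. In a group of 2 arrays these deviations mirror each other, so the check cannot tell whether same-numbered arrays share a batch or other origin.

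An alternative chosen after seeing the data left out genes with the same value on 3 or more arrays. It gave 6 matrix genes higher at 2 weeks, beside 907 higher and 761 lower of the 10397 genes kept in all. At 4 weeks there were 5, beside 1142 higher and 1087 lower of those genes. The median differences of the matrix genes were 0.2222, 0.1263 and 0.1310 at 2 weeks, at 4 weeks and over both times. These medians cover only the 22 matrix genes it keeps, and the median of all genes kept was not computed. Signal over background was not given, which limits what can be said of dim genes.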
